A study of Mus musculus with 14 samples.

Results

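The T cell receptor complex and its first signalling steps were followed through 9 genes (Cd3d, Cd3e, Cd3g, Cd247, Lck, Zap70, Lat, Lcp2 and Cd5) out of 32285 in the matrices, each matched by its symbol, and each symbol occurred once. The study profiled white nodules of 7 mice, with a single-cell RNA library and a library of rearranged antigen receptors (V(D)J) from each nodule. All mice were Eif3e fl/fl Cγ1Cre (cKO) on a C57BL/6J background, in which Eif3e, a subunit gene of translation initiation factor eIF3, is deleted by a Cre made from the Ig γ1 locus, a locus transcribed in activated B cells. T cells are thus not the cells this Cre is meant for. The study lists a Rosa26-YFP reporter for mice 29, 31, 32 and 34 and none for mice 27, 30 and 33. The TCR was profiled in mouse 30 (liver nodule, 14 mo old) and mouse 32 (spleen, 12 mo), and the BCR in 5 further mice, namely mouse 34 (9 mo old, lung with thymus), mouse 27 (12 mo old, liver), mouse 29 (12 mo old, lung), mouse 31 (13 mo old, spleen) and mouse 33 (16 mo old, thymus). A figure legend of the study names the mouse 27 sample as a secondary tumor, one grown after transfer into a Rag2-/- recipient, which makes no mature B or T cells of its own, unlike the other nodules. The genotype is that of the mouse and not of each cell. In the tumors the paper found B and CD4+ T cells to lack YFP and to hold eIF3e protein at normal levels. No nodule of a mouse with another genotype was analysed here, and site and mouse cannot be told apart.

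The T cell receptor itself has no signalling tail. It is carried by the CD3 chains, encoded by Cd3d, Cd3e, Cd3g and, for the zeta chain, Cd247, whose cytoplasmic ITAM motifs are phosphorylated by the Src family kinase Lck. The kinase ZAP-70 then docks on the ITAMs and phosphorylates the membrane adaptor LAT and the cytosolic adaptor SLP-76 (Lcp2), which together hold phospholipase Cγ1 and further effectors, while the surface receptor CD5 damps the signal.

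Of 75503 cells past the filters, 25982 lay in clusters named T-like from marker genes that did not include any of the 9 genes. In the TCR nodules these were split by receptor. T clone cells carried the dominant receptor of their nodule (1981 cells in mouse 30 and 4548 in mouse 32), and non-clonal T cells carried another called receptor (379 and 338 cells). T-like cells without a called receptor in these nodules (6753 and 2808) were kept apart. In the BCR nodules, T-like cells without a BCR are called bystander T cells (459, 5085, 851, 1888 and 797 cells for mice 27, 29, 31, 33 and 34). An unnamed cluster of 2209 cells carried 7 T cell markers and was led by cytotoxic genes. Mouse 33 gave 78.6% of its cells, and they are in none of these groups. Levels are given as CPM, which are the UMIs of a gene divided by all UMIs of the summed cells of a group in 1 mouse and scaled to 1e6. A mouse is the replicate throughout.

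The clones are defined by the CDR3, the stretch across the V(D)J junction that is particular to a rearrangement, and the commonest of each chain are shown because every comparison of clone cells rests on them. Capitals are not used in them.

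Mouse 30, TRBV1 with TRBJ2-1: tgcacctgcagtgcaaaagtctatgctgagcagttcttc
Mouse 30, TRAV9-2 with TRAJ21: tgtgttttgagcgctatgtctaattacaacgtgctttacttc
Mouse 32, TRBV26 with TRBJ2-5: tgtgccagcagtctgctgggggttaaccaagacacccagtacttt
Mouse 32, TRAV6N-7 with TRAJ30: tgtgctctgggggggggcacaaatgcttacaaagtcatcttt
Mouse 32, TRAV14D-3-DV8 with TRAJ17: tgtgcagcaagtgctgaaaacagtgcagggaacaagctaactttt

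The beta chain was found in 1973 of 2117 cells of the clone of mouse 30 and in 4794 of 4915 cells of that of mouse 32, counted before the RNA filters. The RNA carried the same segments. Trbv1 stood at 1537 CPM in the mouse 30 clone and at 67.2 CPM in its non-clonal cells, and Trbv26 at 977 CPM in the mouse 32 clone and at 9.10 CPM in its non-clonal cells. Cd4, the coreceptor of helper T cells, was detected without Cd8a or Cd8b1 in 598 clone cells of mouse 30 and 2313 of mouse 32, and Cd8a or Cd8b1 without Cd4 in 2 and 14.

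The libraries held 19264039 to 123456962 UMIs, with median UMIs per kept cell of 1364 (mouse 30) to 5319 (mouse 33). The T groups compared had medians of 1185 (bystander cells of mouse 29) to 3625 (clone of mouse 32). The 21 pairs of libraries shared 96 to 286 cell barcodes each, and these cells were kept. Site and RNA content differ with the mouse, and in summed cells fewer cells expressing a gene and less RNA per cell cannot be told apart.

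The CD3 chains were first compared between the T clone and the non-clonal T cells of the same nodule. Cd3d stood at 709.6 CPM in the clone of mouse 30 against 431 in its non-clonal cells, and at 491 in the clone of mouse 32 against 262. Cd3e stood at 641 against 498 CPM in mouse 30 and at 451 against 361 in mouse 32. Cd3g stood at 757 against 529 CPM in mouse 30 and at 446 against 270.2 in mouse 32. All 3 were higher in the clone in both mice, and their levels differed more between the mice than between the groups for Cd3e and Cd3g, whose groups overlapped. The log2 fold changes were 0.71 ± 0.21 (SE) for Cd3d, 0.23 ± 0.20 for Cd3e and 0.51 ± 0.21 for Cd3g, and none passed (edgeR quasi-likelihood test over all genes with mouse as a block, adjusted p = 0.564, 0.890 and 0.753, n = 2 pairs).

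Cd247, the zeta chain gene, went in opposite directions in the 2 nodules. It stood at 73.4 CPM in the clone of mouse 30 against 408 in its non-clonal cells, a ratio of 0.180 (95% exact interval 0.155 to 0.209, counting error only). In mouse 32 it stood at 222 CPM in the clone against 145, a ratio of 1.54 (1.31 to 1.81). Cd247 made up 3.36% of the UMIs of the 4 CD3 complex genes in the clone of mouse 30 (95% Clopper-Pearson interval 3.02 to 3.73), 21.8% in its non-clonal cells, 13.8% in the clone of mouse 32 and 13.9% in its non-clonal cells. In bystander T cells the share ran from 10.8% in mouse 33 to 20.6% in mouse 29, so the clone of mouse 30 lay below every other T group. The annotation places Pou2f1 over part of Cd247, and likewise 4930469K13Rik over part of Lcp2. Whether counting used strand is not given in the sources used here. The pooled log2 fold change was -1.04 ± 0.87 (edgeR adjusted p = 0.890), and the difference between the mice was not tested, since each has 1 sum per group.

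Neither kinase gene passed. Lck stood at 281 CPM in the mouse 30 clone and 308.5 in that of mouse 32, against 242 and 269 in the non-clonal cells (log2 fold change 0.10 ± 0.21, edgeR adjusted p = 0.962). Zap70 stood at 105 and 98.2 CPM in the clones against 90.7 and 58.2 (0.37 ± 0.27, edgeR adjusted p = 0.874). Both were higher in the clone in both mice. The ratio of Zap70 in mouse 30 was 1.155 with an exact interval of 0.916 to 1.47 that held 1. That of Lck there was 1.16, with an interval of 1.008 to 1.34. Among Cd4 cells the Zap70 difference was larger, at 127 against 71.2 CPM in mouse 30 and 109 against 36.8 (7 UMIs) in mouse 32 (1.07 ± 0.43, edgeR adjusted p = 0.636).

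**Figure D1:**
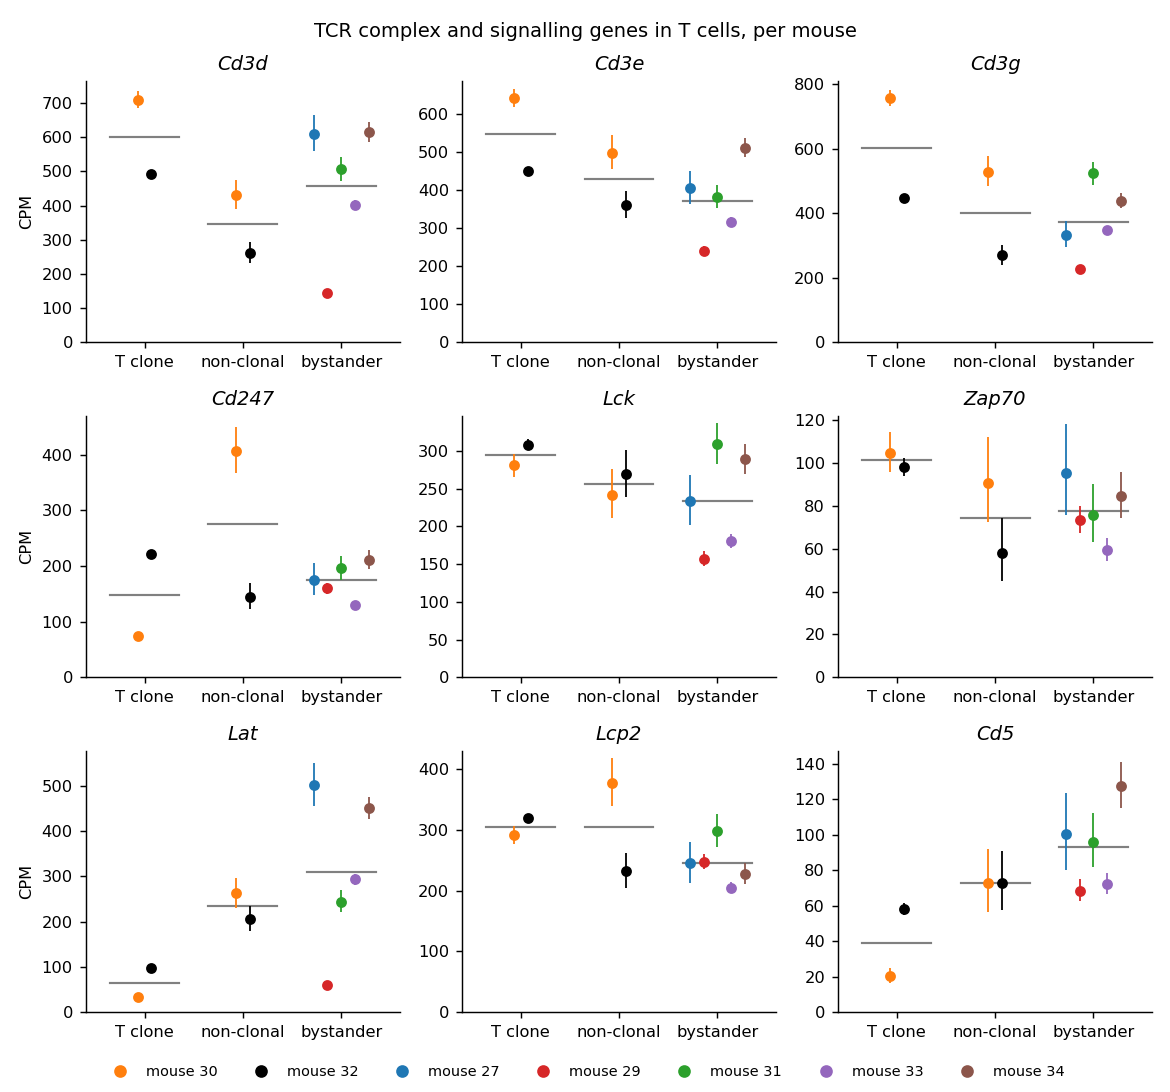
CPM (linear axis from 0) of the 9 genes in T clone, non-clonal and bystander T cells; each point is 1 mouse with its exact Poisson 95% interval, and the grey bar is the mean of the group. Lat and Cd5 are lower in the T clones than in the non-clonal cells of the same mice, the Cd3 genes are not, and the bystander cells of mouse 29 are low for Lat and the Cd3 genes.

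Lat was the member furthest below the non-clonal cells in these 2 nodules. It stood at 32.6 CPM in the clone of mouse 30 against 262 in its non-clonal cells, 8.04 times lower, and at 96.5 CPM in the clone of mouse 32 against 206, 2.13 times lower. The exact intervals of the ratio clone over non-clonal were 0.101 to 0.153 and 0.409 to 0.541. The clone of each mouse lay below the non-clonal cells of both. The log2 fold change was -2.14 ± 0.55 (edgeR adjusted p = 0.512). Over 9 alternative settings the adjusted p ran from 0.00462 (DESeq2) to 0.989 and passed in 2, DESeq2 and the fit without a filter on low counts (0.00834), while the log2 fold change stayed between -2.37 and -1.92. Lcp2, the partner of LAT in the same signalling complex, did not follow it. It stood at 291.5 CPM in the clone of mouse 30 against 378 and at 319 in the clone of mouse 32 against 232, which is lower in the former and higher in the latter (log2 fold change -0.07 ± 0.30, edgeR adjusted p = 0.984).

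Cd5 was lower in the clone in both mice, at 20.4 CPM against 72.6 in mouse 30 and 58.0 against 72.8 in mouse 32. The ratio was 0.281 (0.204 to 0.389) in mouse 30 and 0.797 (0.635 to 1.01) in mouse 32, where the interval reached 1. The log2 fold change was -1.17 ± 0.45 (edgeR adjusted p = 0.731, 0.312 to 1.00 over the 9 alternatives).

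In all, 0 of the 9 members and 0 of 10983 genes tested were called between clone and non-clonal cells (0% of genes), although 772 genes had an unadjusted p under 0.05 and DESeq2 called 168 (1.53%). By direction alone, 5 members (Cd3d, Cd3e, Cd3g, Lck and Zap70) were higher in the clone in both mice, as were 37.2% of all genes tested, and 2 (Lat and Cd5) were lower in both, as were 19.3%. The median log2 fold change was 0.10 over the 9 members and 0.02 over all genes.

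**Figure D2:**
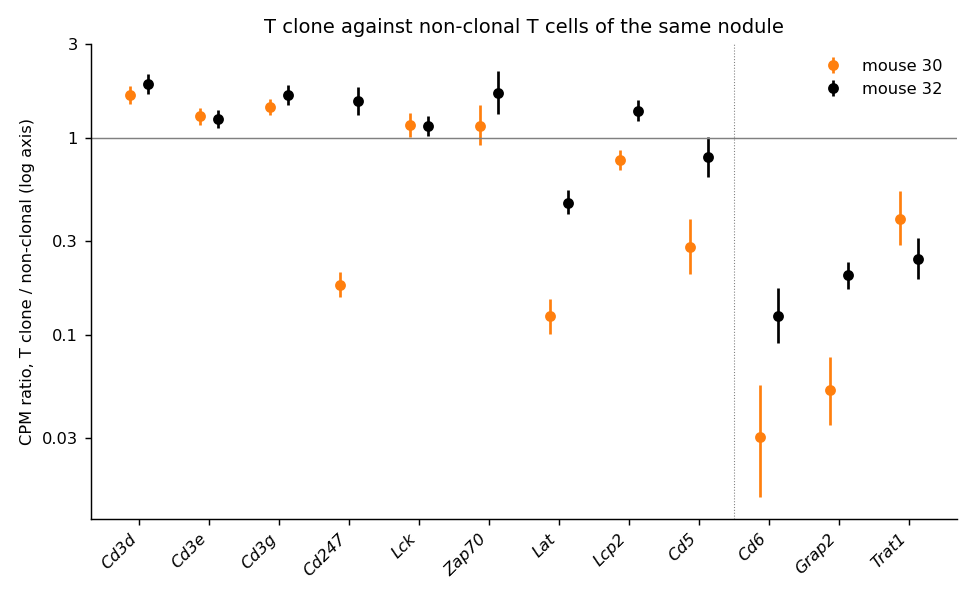
Ratio of CPM in the T clone to that in non-clonal T cells of the same nodule (log axis) for the 9 members and, right of the dotted line, 3 further pathway genes; points are single mice with 95% exact intervals for counting error. Cd247 and Lcp2 lie on opposite sides of 1 in the 2 mice, whereas Lat, Cd5, Cd6, Grap2 and Trat1 lie below 1 in both.

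The promoters of Lat and Cd5, lower in both clones, and of the neighbours Cd3d and Cd3g, which were not, are shown so that their sequence can be set beside these values. Of the 9 members, 9 matched a window in the RefSeq promoter table (GRCm38.p6, the assembly version of the build GRCm38 in the submitters' processing notes). The windows run from 250 bases before to 50 after a gene start and are written 5′ to 3′ on the strand of the gene. Capitals mark matches, on either strand, to any of 4 short motifs. The letters searched for ETS factors were GGAAGT. Those for RUNX factors were TGTGGT, and those for GATA factors were AGATAA. The E-box was searched as CAGNTG, where N stands for any base.

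Lat, chr7:126369519-126369818, minus strand: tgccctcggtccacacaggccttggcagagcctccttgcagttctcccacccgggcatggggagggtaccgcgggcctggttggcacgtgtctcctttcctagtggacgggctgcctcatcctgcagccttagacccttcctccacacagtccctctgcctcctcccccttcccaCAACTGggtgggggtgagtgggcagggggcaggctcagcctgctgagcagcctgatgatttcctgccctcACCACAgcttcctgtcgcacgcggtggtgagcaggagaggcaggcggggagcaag
Cd5, chr19:10738925-10739224, minus strand: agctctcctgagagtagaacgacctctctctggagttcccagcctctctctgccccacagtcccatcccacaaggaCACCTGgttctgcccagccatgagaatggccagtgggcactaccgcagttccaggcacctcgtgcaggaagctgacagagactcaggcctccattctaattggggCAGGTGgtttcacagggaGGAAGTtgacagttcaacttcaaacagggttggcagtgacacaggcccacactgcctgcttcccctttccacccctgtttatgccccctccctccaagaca
Cd3d, chr9:44981536-44981835, plus strand: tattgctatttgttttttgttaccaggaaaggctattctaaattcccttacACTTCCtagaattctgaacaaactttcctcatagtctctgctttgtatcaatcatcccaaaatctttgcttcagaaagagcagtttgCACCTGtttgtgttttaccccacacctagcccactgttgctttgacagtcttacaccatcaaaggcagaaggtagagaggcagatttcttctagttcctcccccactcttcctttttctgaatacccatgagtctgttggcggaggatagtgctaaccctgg
Cd3g, chr9:44980382-44980681, minus strand: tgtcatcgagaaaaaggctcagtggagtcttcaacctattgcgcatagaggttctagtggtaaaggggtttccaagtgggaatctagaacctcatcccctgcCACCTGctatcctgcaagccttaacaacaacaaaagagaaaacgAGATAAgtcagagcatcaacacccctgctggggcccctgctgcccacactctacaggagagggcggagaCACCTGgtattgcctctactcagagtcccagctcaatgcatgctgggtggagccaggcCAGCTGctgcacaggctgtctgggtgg

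The Lat window held 1 RUNX match and 1 E-box match. The Cd5 window held 1 ETS and 2 E-box matches, the Cd3d window 1 ETS and 1 E-box match, and the Cd3g window 1 GATA and 3 E-box matches. Of 32851 windows of the same length in the table, 23.8% held the ETS letters, 16.8% the RUNX letters, 11.2% the GATA letters and 51.4% the E-box letters. No letters were common to the windows of Lat and Cd5 and missing from those of Cd3d and Cd3g among these 4 motifs.

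The share of cells with a Lat UMI was lower in the clones as well, counted from the same cells and UMIs and so no separate evidence. After each cell was thinned to 1000 UMIs, 3.83% of the clone cells of mouse 30 held a Lat UMI (95% Clopper-Pearson interval 3.01 to 4.80) against 18.2% of its non-clonal cells (14.4 to 22.6). In mouse 32 the shares were 9.57% and 16.96% (13.1 to 21.4). Shallower cells were left out, 102 and 17 in mouse 30 and 21 and 2 in mouse 32. Without thinning the Lat shares were 7.37% and 35.9% in mouse 30, and 32.3% and 41.1% in mouse 32. Cd5 was found in 2.13% of thinned clone cells (1.53 to 2.89) and 8.29% of non-clonal cells (5.66 to 11.6) of mouse 30, whereas in mouse 32 the shares were 5.06% (4.44 to 5.74) and 6.55% (4.15 to 9.75) with overlapping intervals, and without thinning 18.5% and 18.3%. For Cd3e the thinned shares ran the other way, 46.6% in the clone and 38.4% in non-clonal cells of mouse 30, and 34.1% and 30.1% in mouse 32. B clone cells of the other 5 libraries, which should lack the Cd3 genes, gave thinned Cd3e shares of 0% (mice 29 and 33; 0 of 295 cells, exact upper bound 1.24%) to 0.221% (mouse 34), with median depths before thinning of 9356 to 13763 UMIs. For Lat they gave 0% to 0.253%. These cells are deeper than the T cells and come from other libraries, so the background of the TCR libraries was not measured by them.

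Within each clone Lat varied little between clusters, and Cd5 varied little in mouse 32. In mouse 30, Lat stood at 31.8 CPM in both clusters of the clone with at least 50 cells (1484 and 470 cells). Cd5 stood at 22.0 and 14.9 CPM there (80 and 15 UMIs), with overlapping Poisson intervals that leave its variation unclear. In mouse 32, Lat stood at 98.9, 97.4 and 89.5 CPM and Cd5 at 56.7, 60.0 and 55.4 in 3 clusters of 1944, 1655 and 923 cells. Of the other 7 members, Lck also had overlapping intervals between the clusters of mouse 30, at 287 and 262 CPM. In mouse 32 all 7 were highest in the cluster of 1655 cells, with intervals apart from those of the other clusters. In the same 3 clusters of mouse 32 Cd247 stood at 185, 289 and 98.5 CPM and Zap70 at 63.0, 127 and 77.1. Cd3d stood at 392, 599.8 and 358 CPM and Lcp2 at 273, 379.8 and 228. The cluster with the highest levels had a median of 5349 UMIs per cell and the others 2897 and 3289. Clusters were built from these cells without the 9 genes, and no test was run between them.

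The coreceptor mix differed between the groups and was therefore held fixed. Among cells with Cd4 and without Cd8 UMIs, Lat stood at 30.96 CPM in the clone of mouse 30 (598 cells) against 289.6 in its non-clonal cells (119 cells), and at 94.2 in the clone of mouse 32 (2313 cells) against 231 (57 cells). Cd5 stood at 20.1 against 71.2 CPM and at 58.6 against 99.8. Lat and Cd5 were thus lower in the clones in both mice among Cd4 cells too (Lat log2 fold change -2.32 ± 0.50, edgeR adjusted p = 0.0826). The summed CPM of 7 NK cell markers (Ncr1, Klrb1c, Klre1, Klra8, Eomes, Gzma and Prf1) was 249 and 811 in the non-clonal cells of mice 30 and 32 against 37.5 and 33.7 in the clones, with Ncr1 and Klra8 at 0 in both non-clonal sums. The 7 B cell markers summed to 6.40 to 57.5 CPM and the 7 macrophage markers to 9.603 to 19.1 CPM over the 4 sums. Lat and Grap2 were among the 10 genes most raised over the other clusters in a T-like cluster of 3548 cells. Ccl5, Eomes, Gzmk and Cd8b1 were among them too, and the cluster held fewer than 50 cells of either clone. The part of these markers and of T cell subtype in the result was not tested.

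For Lat and Cd5 the T-like cells of these nodules without a called receptor lay between the clone and the non-clonal cells. Lat stood at 53.7 CPM in mouse 30 and 103 in mouse 32, and Cd5 at 31.5 and 64.5. Cd3d (391 and 230.5 CPM), Cd3e (473 and 317) and Cd3g (461 and 235) were below both groups in both mice. The clone beta segment was at 309 CPM (Trbv1, mouse 30) and 172 CPM (Trbv26, mouse 32) in them, against 67.2 and 9.10 CPM in the non-clonal cells of the same mice.

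Of 46 further genes of the pathway, 0 were called between clone and non-clonal cells, and 14 had an unadjusted p under 0.05, as did 772 of all 10983 genes. Their median log2 fold change was -0.31, against 0.02 over all genes, with 32 below 0, as were 5283 of the 10983 genes. By role, 4 of 6 coreceptor and costimulation genes, 4 of 6 kinase and phosphatase genes, 8 of 10 adaptors, 6 of 10 effectors, 6 of 9 inhibitors and 4 of 5 induced genes had a log2 fold change below 0. The 5 with the smallest p were Cd8a, Cd8b1, Cd6, Trat1 and Grap2, all lower in the clone in both mice. Cd8a and Cd8b1 encode the CD8 coreceptor, which helper T cells lack. Cd6, a surface receptor related to CD5 and its neighbour on chromosome 19, stood at 2.54 and 6.46 CPM in the clones against 84.3 and 51.9 in the non-clonal cells of mice 30 and 32 (log2 fold change -4.00 ± 0.60, edgeR adjusted p = 0.239, 4.86e-07 to 0.346 over 9 alternatives, past the threshold in 4). Grap2, which encodes the adaptor GADS that links SLP-76 to LAT, stood at 7.21 and 37.9 CPM against 138 and 189 (-3.32 ± 0.57, edgeR adjusted p = 0.282, 4.86e-07 to 0.868, past in 3). Trat1, an adaptor that associates with the receptor complex, stood at 26.1 and 18.95 CPM against 67.2 and 78.2 (-1.82 ± 0.30, edgeR adjusted p = 0.279, 0.00815 to 0.646, past in 3). For Cd6, Grap2 and Trat1 the restriction to Cd4 cells was among the alternatives that passed.

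The receptor chain constant genes are given as levels only. Trac stood at 111.5 CPM in the mouse 30 clone and 245 in that of mouse 32, against 161 and 106 in the non-clonal cells. Trbc2 stood at 863 and 586 CPM in the clones, against 488 and 181 in the non-clonal cells of mice 30 and 32, ratios of 1.77 and 3.24. Trbc1 and Trbc2 are nearly identical, so how their reads were shared is uncertain, and both clones use J segments of the second cluster (TRBJ2), which join to Trbc2.

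The clones were next set against the bystander T cells of the 5 BCR nodules, which held a dominant B cell clone. The TCR was not profiled in these nodules, so whether their T cells are clonal is not known. Bystander Cd3d was 609.7, 146, 506, 403 and 615 CPM for mice 27, 29, 31, 33 and 34, so the clones at 709.6 and 491 CPM fell inside or above this range. Cd3e ran from 241 (mouse 29) to 511 CPM (mouse 34) and Cd3g from 228 (mouse 29) to 524 (mouse 31). The groups overlapped for all 3, with log2 fold changes of 0.31 ± 0.49, 0.47 ± 0.31 and 0.59 ± 0.34 (edgeR adjusted p = 0.889, 0.678 and 0.634, n = 2 and 5). Cd247 ran from 129.5 (mouse 33) to 212 CPM (mouse 34), and the clones lay on either side of it (-0.29 ± 0.42, edgeR adjusted p = 0.881). Lck ran from 157 to 309 CPM (0.26 ± 0.30), Lcp2 from 205 to 298 (0.24 ± 0.24) and Zap70 from 59.6 to 95.4 (0.30 ± 0.24), and none of these passed (edgeR adjusted p = 0.828, 0.805 and 0.731). Zap70 was the only member whose clone levels lay above every bystander level, and 9.54% of all genes tested did.

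Bystander Lat was 501.5, 59.9, 244, 293 and 450.0 CPM for the same mice in that order. The clones at 32.6 and 96.5 CPM were below 4 of the 5, and mouse 29 lay between them. The log2 fold change was -2.31 ± 0.82 (edgeR adjusted p = 0.402, 0.0434 to 0.775 over 15 alternatives, past the threshold in DESeq2). Mouse 29 gave 69.8% of the 3262 cells of a T-like cluster and 57.4% of the 2604 cells of another, led by Areg and Ramp3. The bystander cells of mouse 29 also had the lowest Cd3d, Cd3e, Cd3g and Lck of the 5 mice and the lowest median depth. Their summed CPM was 104 for the NK markers, 59.5 for the B cell markers, 93.7 for the macrophage markers and 379 for 7 neutrophil markers (S100a8, S100a9, Retnlg, Csf3r, Cxcr2, Camp and Ngp), against 279 to 526, 110 to 370, 20.9 to 61.95 and 1.71 to 5.82 in the other 4, and the part of these values in the result was not tested. The clones carried neutrophil markers at 246 and 265 CPM and the non-clonal cells at 204 and 338.

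Bystander Cd5 was 100.1, 68.4, 96.0, 72.2 and 127 CPM, again in that order. Both clones, at 20.4 and 58.0 CPM, were below all 5, which held for 4.63% of genes tested. The log2 fold change was -1.28 ± 0.45 (edgeR adjusted p = 0.391, 0.125 to 0.777 over 15 alternatives).

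The test called 0 of the 9 members and 35 of 12649 genes (0.277%), 7 higher (0.0553%) and 28 lower in the clones. DESeq2 called 404 (3.19%). Of the 46 further pathway genes edgeR called 2, both lower in the clones, where 0.221% of all genes were called lower. They were Cd8b1 at 1.91 and 1.36 CPM in the clones against 67.2 to 218 in bystander cells (log2 fold change -6.53 ± 0.63, edgeR adjusted p = 0.0131), and Cd6 at 2.54 and 6.46 CPM against 40.1 to 96.6 (-3.96 ± 0.54, edgeR adjusted p = 0.0343). The clones held 2 and 14 cells with Cd8a or Cd8b1 and no Cd4, and the bystander cells 76 to 420 per mouse. The Cd8b1 call restates this coreceptor mix. Without mouse 27, 30, 32, 33 or 34 the adjusted p of Cd6 was 0.0654 to 0.0969, in Cd4 cells only it was 0.0507, and the log2 fold change stayed between -4.92 and -3.45. The number of genes called was 0 without mouse 32, 4 without mouse 33, 9 without mouse 27, 11 without mouse 34, 18 without mouse 31, 75 without mouse 30 and 116 without mouse 29.

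Non-clonal T cells of the TCR nodules were compared with the same bystander sums. The 2 comparisons share the bystander sums and are not independent. The edgeR test called 0 members and 0 of 10272 genes (0%), with 355 at an unadjusted p under 0.05 and 4 called by DESeq2 (0.0389%). For Lat the non-clonal cells at 262 and 206 CPM lay within the bystander range (log2 fold change -0.39 ± 0.66, edgeR adjusted p = 0.982), and for Cd5 at 72.6 and 72.8 CPM they did too (-0.32 ± 0.29, edgeR adjusted p = 0.980). Cd247 had the largest member difference, 0.68 ± 0.37 (edgeR adjusted p = 0.980), through mouse 30 at 408 CPM. It was -0.24 without that mouse. The other members lay between -0.38 (Cd3d) and 0.33 (Lcp2). For 0 members did the groups not overlap, against 3.97% of genes lower and 4.07% higher in non-clonal cells without overlap.

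Of the 46 pathway genes 0 were called here. The 5 with the smallest p were Prkcq (protein kinase C theta), the transcription factor gene Nfatc2, the diacylglycerol kinase gene Dgka, the adaptor gene Sla and Nfatc1, with log2 fold changes of 1.18 ± 0.36, 0.66 ± 0.26, 0.76 ± 0.31, 0.62 ± 0.28 and 0.65 ± 0.30 (edgeR adjusted p = 0.980 for each). Prkcq stood at 322 and 297.5 CPM in the non-clonal cells against 69.8 to 199 in bystander cells, and at 209.9 and 288 in the clones.

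How much the lineage of a T cell moves these genes was measured in the bystander cells, where all 5 BCR nodules held both CD4 cells (Cd4 UMIs and none of Cd8a or Cd8b1, 108 to 586 cells) and CD8 cells (the reverse, 76 to 420 cells). The T clones carry Cd4. Cd5 was higher in CD4 cells in all 5 mice. Its CPM in CD4 against CD8 cells was 107 against 85.6 (mouse 27), 93.9 against 46.8 (mouse 29), 109.5 against 50.4 (mouse 31), 113 against 54.1 (mouse 33) and 169 against 105 (mouse 34). The levels of CD4 and CD8 cells overlapped between mice, and the difference within mice passed the test (log2 fold change 0.78 ± 0.16, edgeR with mouse as a block, adjusted p = 0.00917, n = 5 pairs). It was no longer past the threshold without mouse 29, 33 or 34 (adjusted p = 0.0535, 0.0599 and 0.0515), with bystander cells chosen by receptor UMIs (0.0703) or without the block (0.748).

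Lcp2 was also higher in CD4 cells in all 5 mice, at 235 against 171 CPM (mouse 27), 298 against 239 (mouse 29), 410.0 against 181.5 (mouse 31), 251.5 against 178 (mouse 33) and 286 against 176 (mouse 34). Its adjusted p was just above the threshold (0.52 ± 0.14, edgeR adjusted p = 0.0510, and 0.0365 without the filter on low counts). The other members did not pass, and their log2 fold changes ran from -0.30 ± 0.18 (Lat, edgeR adjusted p = 0.490) to 0.28 ± 0.17 (Cd247, 0.478). Lat stood at 68.5 to 509.8 CPM in CD4 cells and at 137 to 427.5 CPM in CD8 cells. With mouse 29 lowest in both lineages, the spread of Lat between mice was wider than the difference between lineages.

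**Figure D3:**
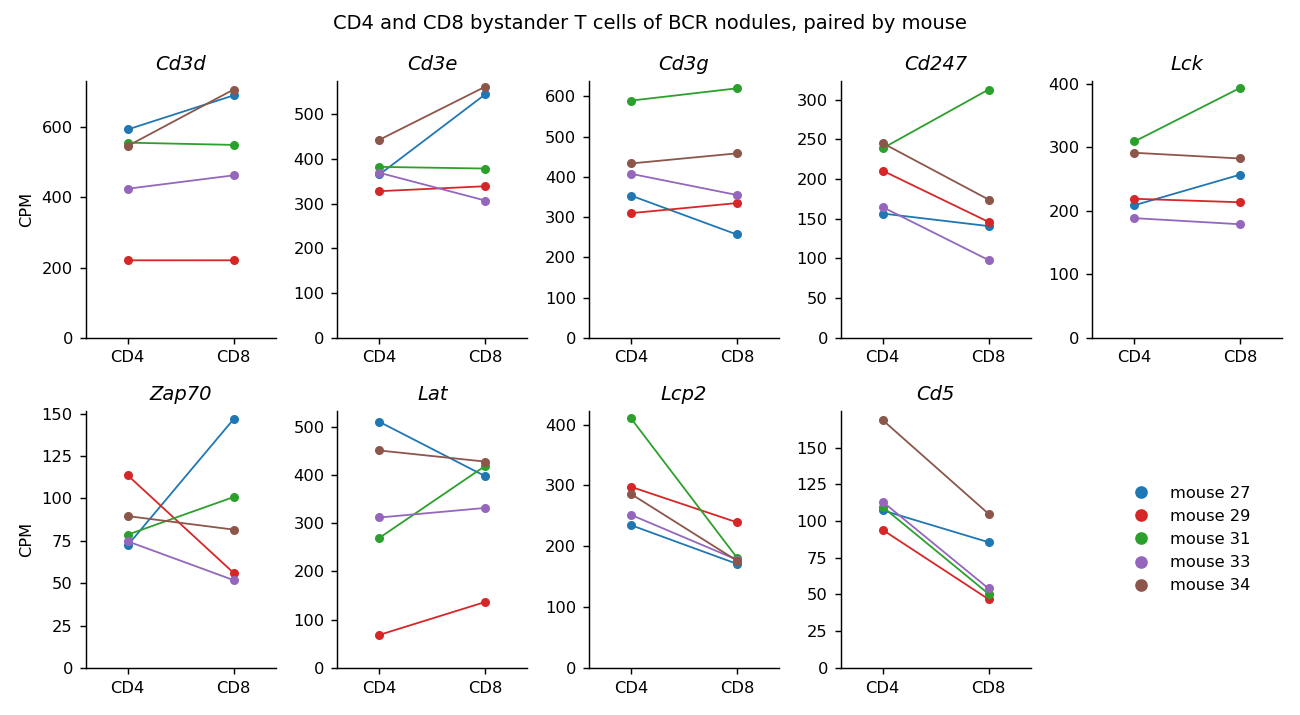
CPM (linear axis from 0) of the 9 genes in CD4 and CD8 bystander T cells of the 5 BCR nodules; each line joins the 2 groups of 1 mouse. Cd5 and Lcp2 fall from CD4 to CD8 in all 5 mice, and mouse 29 is low for Lat and Cd3d in both groups.

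Of the 9 members 1 was called, Cd5, with 293 of 6830 genes called in all (4.29%), 214 of them higher in CD4 cells (3.13%) and 79 lower (1.16%). Members higher in CD4 cells in every mouse were Lcp2 and Cd5, as were 10.2% of genes tested, and 0 members were lower in every mouse, as were 3.62%. Of 45 tested pathway genes 5 were called. Of these Cd4, Cd8a and Cd8b1 set the groups and are no result. Sh2d2a, which encodes the T cell adaptor TSAd, was lower in CD4 than in CD8 cells (-0.78 ± 0.18, edgeR adjusted p = 0.0191, past the threshold in 7 of 11 alternatives). It was lost without mouse 29 or 34 (0.124 each), with cells chosen by receptor UMIs (0.495) and without the block (0.999). Sla, which encodes a Src-like adaptor that restrains receptor signalling, was higher in CD4 cells (0.69 ± 0.18, edgeR adjusted p = 0.0493, past the threshold in 2 of 11 alternatives).

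Across the named cell classes the members marked T cells to different degrees. In B-like cells Cd3e stood at 0.821 to 4.52 CPM and in macrophage-like cells at 1.72 to 63.2, against 241 to 641 over the clone, non-clonal and bystander sums. Zap70 was at most 15.8 CPM in any other named class (erythroid-like cells of mouse 29, a small sum with few Zap70 UMIs). Cd5 was at most 16.1 CPM (macrophage-like cells of mouse 34). Lat reached 45.7 CPM in macrophage-like cells of mouse 34, above the 32.6 CPM of the clone of mouse 30. Macrophage-like sums also reached 73.9 CPM of Cd3d and 63.2 of Trbc2. The part of T cell RNA in this Lat value was not tested. No cluster was named NK-like, and the 10139 cells of the 8 unnamed clusters are not among these classes. Lcp2 was not particular to T cells. It stood at 118 to 296 CPM in macrophage-like cells of 7 libraries and 145 to 340.2 in neutrophil-like cells of 3, where the T groups had 205 to 378, and these ranges overlapped. Over 35 sums of at least 50 cells in 11 groups, the genes outside the members whose log2(CPM + 1) followed that of the summed Cd3d, Cd3e and Cd3g most closely were Sh2d1a (Pearson r = 0.979), Trbc2 (0.961), Cd27 (0.960), Tigit (0.958) and Trac (0.9545), of 14395 genes ranked. The same measure was 0.955 for Zap70, 0.950 for Cd247, 0.946 for Lck, 0.888 for Lat, 0.877 for Cd5 and 0.598 for Lcp2. Sums of the same library share its depth, and Trac and Trbc2 helped to name the classes.

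**Figure D4:**
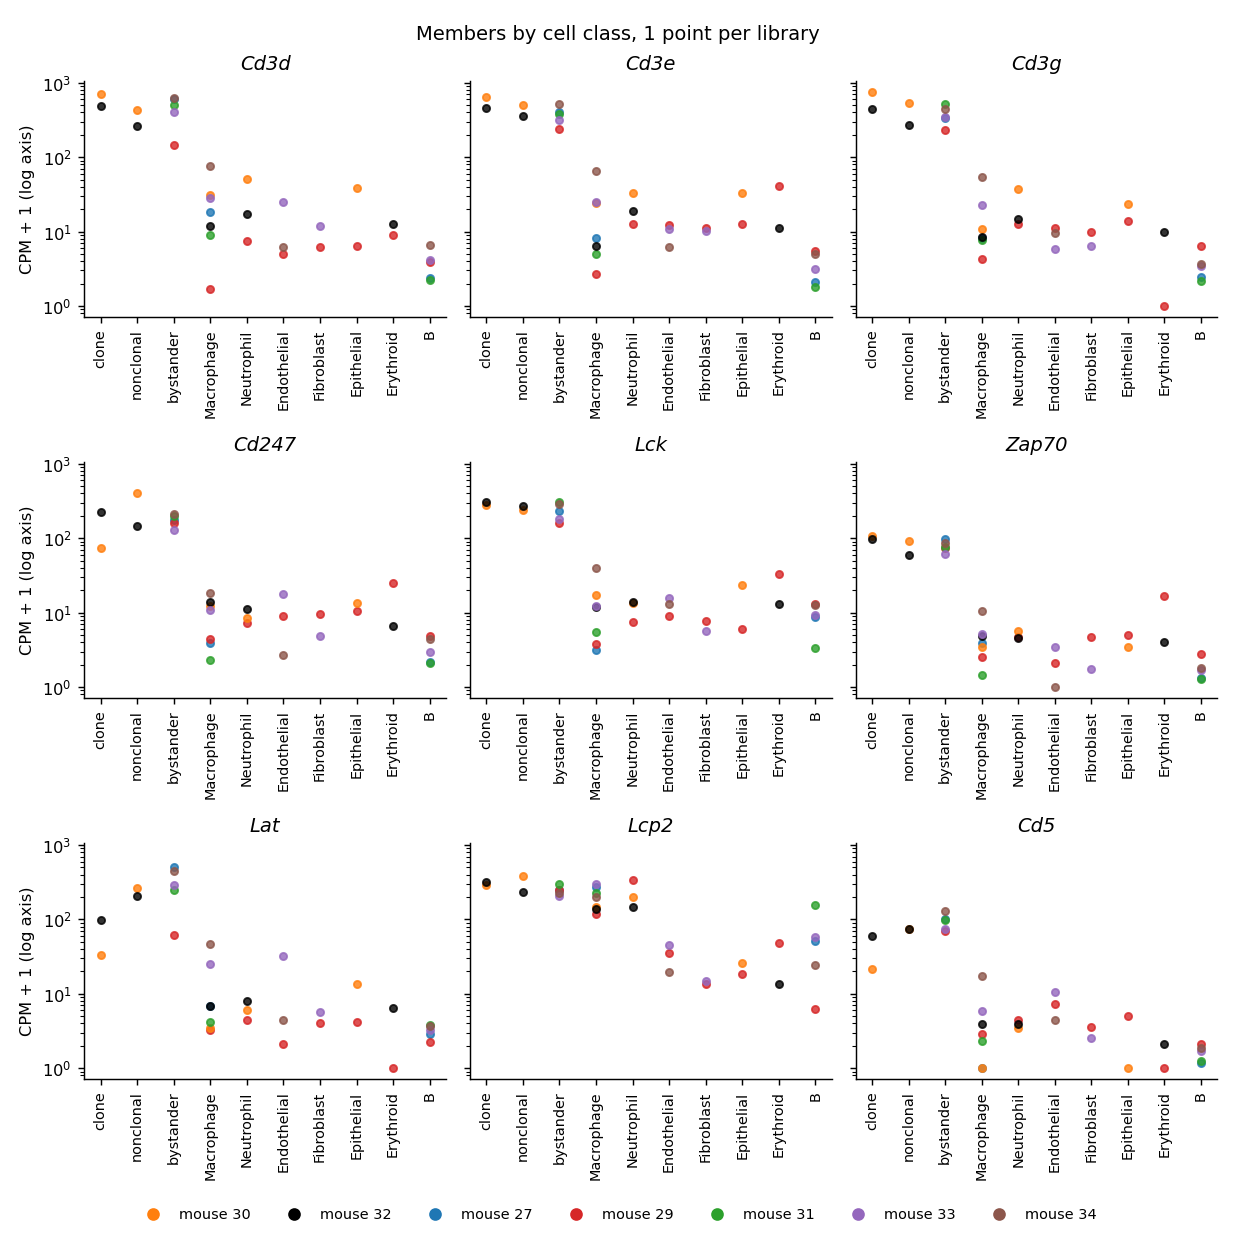
CPM plus 1 (log axis) of the 9 genes by group or class, 1 point per library with at least 50 cells of it. Lcp2 reaches T cell levels in macrophages and neutrophils, and the other 8 genes reach their highest level in T cells, though Lat in macrophage-like cells of mouse 34 (45.7) exceeds the clone of mouse 30 (32.6). Macrophage-like sums also reach 73.9 CPM of Cd3d, and the part of T cell RNA in them was not tested.

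UMIs of the members in B clone cells were set against those of the Cd3 genes, beside the same ratio in bystander T cells of the library. The makeup of free RNA in these libraries was not measured. Lck exceeded that ratio in all 5 BCR nodules. Per 100 UMIs of Cd3d, Cd3e and Cd3g B clone cells held 208, 84.6, 62.75, 149 and 98.8 Lck UMIs (mice 27, 29, 31, 33 and 34), against 16.99 to 25.6 in the bystander T cells of the same libraries, and no interval of a B clone reached the T cell range. In CPM this was a low level, from 1.99 in mouse 31 to 9.69 in mouse 34, against 157 to 309 in bystander T cells.

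Lcp2 exceeded the T cell ratio in 4 mice, with 1549, 4859, 1367 and 172 UMIs per 100 Cd3 UMIs in mice 27, 31, 33 and 34 against 18.2, 21.1, 19.2 and 14.5 in the T cells. In mouse 29 the ratio was 48.7 with an interval of 26.6 to 86.4 that held the T cell value of 40.3. The Lcp2 level of the B clones differed widely, from 5.403 CPM in mouse 29 to 154 in mouse 31. Lat exceeded its T cell ratio in mouse 31, with 84.3 (66.2 to 107) against 17.3, and in the other 4 mice the interval held the T cell value. Cd247 stood at 28.2 to 31.7 per 100 in B clones and 12.2 to 26.0 in T cells, with the interval above the T cell value in mice 27, 31, 33 and 34, whereas in mouse 29 the interval of 13.0 to 56.2 held it. Zap70 and Cd5 had few UMIs in B clone cells (3 to 14 and 2 to 13 per library), and their intervals held the T cell value except for Cd5 in mouse 33 (18.1, 9.17 to 32.9, against 6.77). Without B clone cells that held 2 or more UMIs of Trac, Trbc1 and Trbc2, the Lat interval was also above the T cell value in mouse 27 (80.65, 45.65 to 141, against 37.2) and the Zap70 interval in mouse 31 (12.1, 6.06 to 22.1, against 5.38), the Cd247 interval of mouse 27 held the T cell value (29.03, 12.2 to 62.5, against 12.9), and Lck and Lcp2 were above it in the same mice as with all B clone cells.

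**Figure D5:**
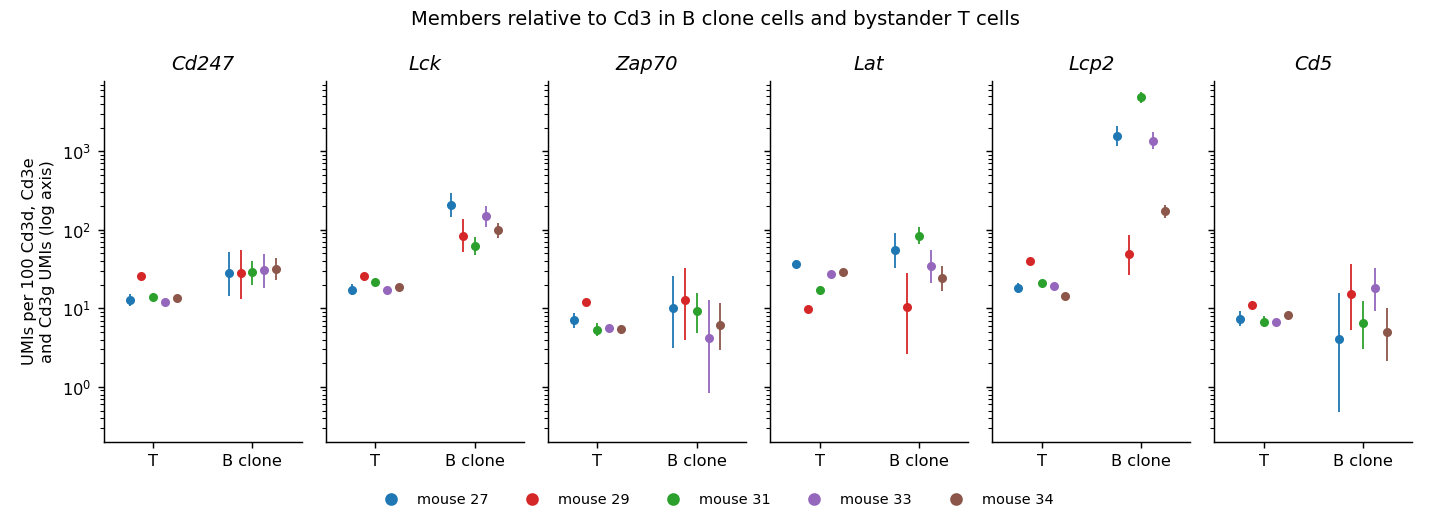
UMIs of 6 members per 100 UMIs of Cd3d, Cd3e and Cd3g (log axis) in bystander T cells (T) and B clone cells of the 5 BCR nodules; points are single mice with exact binomial 95% intervals. Lck lies above its T cell ratio in all 5 B clones and Lcp2 in 4, whereas the Zap70 intervals overlap the T cell values.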

How the data were processed

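White nodules of 7 mice were profiled by droplet single-cell RNA-seq with V(D)J sequencing (7 RNA and 7 V(D)J libraries, SeekOne DD). The deposited matrices contain the authors' unnormalized UMI counts for each gene in each cell, with clonotypes called with SeekSoulTools. GRCm38 (mm10) is named in the submitters' processing notes, and the aligner, annotation, cell calling and counting by strand are not given in the sources used here. The labels name a 5′ kit and the methods a 3′ kit for RNA. Other columns of the deposited contig tables, counts included, served only to define clones.

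Cells with at least 201 UMIs, at least 101 genes and at most 10% mitochondrial UMIs were kept (75503 of 77442) and clustered without the 9 members (scanpy 1.11.5, leiden resolution 2, 48 clusters, 11 T-like, 8 unnamed with 10139 cells). The resolution and naming rule were set after marker genes of clusters were seen. Of the kept cells with the clone receptor 94.0% (mouse 30) and 93.4% (mouse 32) were T-like, and of those with another receptor 379 of 396 and 338 of 468, where 111 of the latter lay in an unnamed cluster led by cytotoxic genes. Doublet-like cells were kept and left out as an alternative. UMIs summed per mouse and group were tested with edgeR 4.0.16 (quasi-likelihood, TMM, filterByExpr, Benjamini-Hochberg over all genes, threshold 0.05), with DESeq2 1.42.0 as an alternative. Mouse was a block where both groups came from the same animals, so no check of pairing by number was needed. The scripts were tested on simulated data with the same dispersion for every gene. That dispersion was set and not estimated from these sums, and no difference between mice was simulated. The recovery is thus not that of the real fits. For clone against non-clonal cells the fit recovered 44 of 100 changes of 4-fold and 4 of 100 of 2-fold. In the other comparisons it recovered 74 to 88 and 9 to 27 of 100. False calls per comparison numbered 1 to 7. A gene that was not called can thus not be taken as unchanged. Exact intervals (95%) cover counting error only. Each group has 1 nodule per mouse.

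The members and lists were chosen with earlier results of these data known. Named were the 9 members and, of 46 fixed pathway genes, those called or otherwise the 5 with the smallest p in a comparison.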

Additional observations from a re-analysis of the deposited data

Results flagged for a closer look

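The zeta chain gene Cd247 was lower in the T clone than in non-clonal T cells in mouse 30 (ratio 0.180) and higher in mouse 32 (1.54), with exact counting intervals on opposite sides of 1. Lcp2 behaved alike, with ratios of 0.772 in mouse 30 and 1.38 in mouse 32. The difference between the mice was not tested for either gene, since each mouse gives 1 ratio.

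In 2 of 27 groups of 5 mice, 1 mouse stood apart from the others by Dixon's criterion, which chance meets in about 1 group in 20. Lcp2 in CD8 bystander T cells was 239 CPM in mouse 29, against 171 to 181.5 in the other 4 mice. Cd5 in CD4 bystander T cells was 169 CPM in mouse 34, against 93.9 to 113 in the other 4.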

How the results depend on the processing

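Genes called between T clone and non-clonal cells (0 in the reported fit) numbered 54 in Cd4 cells only, 168 with DESeq2, 329 without a filter on low counts and 13 in a joint fit of 9 sums with no replicate block, and 0 with no replicate block otherwise. With 1 mouse left out no residual degrees of freedom remained, so no test was made. For clone against bystander cells (35) they were 15 in Cd4 cells only, 404 with DESeq2, 402 without the filter, and 0 to 116 with 1 mouse left out. For non-clonal against bystander cells (0) DESeq2 called 4, and leaving out 1 mouse gave 0 to 4 (4 without mouse 29, 1 without mouse 30). For CD4 against CD8 cells (293) they were 22 with bystander cells chosen by receptor UMIs, 723 without the filter, 4 with no replicate block, and 107 to 404 with 1 mouse left out (107 without mouse 29, 192 without mouse 31, 124 without mouse 34).

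No member that changed sign was called in those fits. Clone against non-clonal cells: Lck was -0.046 over all TCR-called cells and Lcp2 0.028 without the filter. Clone against bystander cells: Cd3d was -0.055 with cells chosen by receptor UMIs, and Cd247 ran from -1.39 (without mouse 32) to 0.35 (without mouse 30). Non-clonal against bystander cells: with receptor UMIs Cd3e was -0.04 and Cd3g -0.18, in Cd4 cells only Cd3g was -0.18, and over all TCR-called cells Zap70 was 0.002. There, from the fit without mouse 30 to that without mouse 32, Cd3e ran from -0.015 to 0.40, Cd3g from -0.45 to 0.48, Cd247 from -0.24 to 1.202, Zap70 from -0.39 to 0.20 and Lcp2 from -0.056 to 0.60. CD4 against CD8 cells: with 1 mouse left out Cd3g ran from -0.12 to 0.022 and Zap70 from -0.077 to 0.29, with no replicate block Zap70 was -0.006, and with receptor UMIs Lat was 0.001. These are log2 fold changes, and the causes were not tested.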
